A study of Mus musculus with 24 samples.

Results

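Homologous recombination and the Fanconi anaemia pathway are represented here by 37 mouse genes, chosen by name: the rows of the authors' comparison tables whose gene symbol equals a member. The rule itself used no measured value, but the members were chosen with earlier results of these data known. All 37 were among the 43626 genes of each table for mouse embryonic fibroblasts (MEFs), 0 were among the 1990 genes of the podocyte table for vehicle, and 32 were among the 9578 genes of the podocyte table for Adriamycin. Both podocyte tables hold only genes with an adjusted p below 0.05.

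The series asks how depletion of MOF, a histone H4 acetyltransferase encoded by Kat8, changes RNA levels with and without Adriamycin (doxorubicin), an anthracycline that traps topoisomerase II on DNA and leaves breaks. The 8 groups of 3 samples were Mof knockout and wild-type MEFs given Adriamycin, Mof knockout and wild-type MEFs given vehicle (DMSO), and the same 4 kinds for MPC5 podocytes, an immortalised line of mouse glomerular cells, with a Mof knockdown or a scramble control. MEFs were at passage 2 and received 0.1 µg/ml of the drug for 24 h; podocytes were differentiated, at passage 20, and received 0.25 µg/ml for 24 h. The labels used here do not state how the knockout and the knockdown were made or if the 3 samples of a group came from separate cultures, so the spread behind each p-value may be purely technical. Each table sets Mof-depleted samples against their controls within a cell type and drug condition, and no value per sample is given, so depth per library is unknown. Every fold change below sets Mof-depleted over control samples, in log2 units, with its standard error (SE), and "called" means an adjusted p below 0.05 from DESeq2 as run by the authors.

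Kat8 (ENSMUSG00000030801, GRCm38 chr7:127912516-127925837, protein coding) set the direction of every table and so does not test the labels. Its log2 fold change in the authors' deposited table was -1.71 ± 0.16 in MEFs with Adriamycin and -1.96 ± 0.20 with vehicle. In podocytes Kat8 was at -1.24 ± 0.14 with Adriamycin and -1.49 ± 0.15 with vehicle in the authors' deposited table. All 9 fibroblast markers looked for had reads in MEFs, while Nphs1, a slit diaphragm gene that marks podocytes, had a mean normalized count of 0.505 in the Adriamycin table and 0 in the vehicle table. In the podocyte tables the podocyte markers Synpo and Podxl were listed in both drug conditions and Nphs1 and Wt1 in neither, so their levels could not be checked there.

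Homologous recombination repairs a DNA break from an intact sister copy: the MRN complex (MRE11, RAD50, NBN) finds the end, nucleases resect it, BRCA1, PALB2 and BRCA2 prepare the end for strand invasion, and helicases and nucleases take the joined molecules apart. The Fanconi pathway repairs crosslinks between the DNA strands: a core complex ubiquitinates the FANCD2-FANCI pair, which brings in nucleases, and the resulting break is passed to recombination. Many of these genes are transcribed mainly in cells that replicate their DNA, and in a bulk sample fewer such cells and less RNA per cell cannot be told apart.

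The promoters of 6 members are shown. Polq, Fanci, Rad54l and Fanca had the smallest adjusted p in MEFs given vehicle among members with a promoter in the table. Rad52 and Xrcc3 were picked by name. Rad52 was not called in any table, and Xrcc3 was among the members whose Mof effect differed between drug conditions. Each line runs 5′ to 3′ on the strand of the gene, from 250 bases before to 50 bases after the annotated start, and capitals mark matches to a CHR element or a CCAAT box on either strand. The sequences are from RefSeq (GRCm38.p6) and lie at chr16:37011536-37011835 on the plus strand (Polq), chr7:79392088-79392387 on the plus strand (Fanci), chr4:116123641-116123940 on the minus strand (Rad54l), chr8:123318527-123318826 on the minus strand (Fanca), chr6:119902448-119902747 on the plus strand (Rad52) and chr12:111813830-111814129 on the minus strand (Xrcc3).
Polq: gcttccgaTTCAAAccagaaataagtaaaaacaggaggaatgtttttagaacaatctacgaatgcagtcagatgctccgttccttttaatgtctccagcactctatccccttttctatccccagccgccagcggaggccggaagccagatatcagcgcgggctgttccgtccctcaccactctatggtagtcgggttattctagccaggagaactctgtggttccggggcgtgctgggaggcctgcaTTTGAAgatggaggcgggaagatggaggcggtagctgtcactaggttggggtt
Fanci: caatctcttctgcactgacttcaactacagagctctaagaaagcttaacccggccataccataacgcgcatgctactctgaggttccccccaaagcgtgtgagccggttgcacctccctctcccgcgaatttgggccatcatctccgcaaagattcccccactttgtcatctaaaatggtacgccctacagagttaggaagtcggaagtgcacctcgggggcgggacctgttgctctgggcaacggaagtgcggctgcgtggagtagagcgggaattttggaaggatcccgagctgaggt
Rad54l: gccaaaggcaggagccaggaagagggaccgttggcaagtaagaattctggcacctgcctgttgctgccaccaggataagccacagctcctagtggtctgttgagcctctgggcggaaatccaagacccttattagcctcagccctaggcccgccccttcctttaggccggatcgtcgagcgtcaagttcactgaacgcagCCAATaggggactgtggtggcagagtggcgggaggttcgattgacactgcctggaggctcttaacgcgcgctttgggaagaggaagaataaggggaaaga
Fanca: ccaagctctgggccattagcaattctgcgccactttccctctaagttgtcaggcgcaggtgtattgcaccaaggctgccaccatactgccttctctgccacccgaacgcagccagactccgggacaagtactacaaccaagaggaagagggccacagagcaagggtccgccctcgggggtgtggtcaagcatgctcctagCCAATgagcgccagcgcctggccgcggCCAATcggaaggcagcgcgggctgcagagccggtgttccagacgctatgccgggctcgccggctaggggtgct
Rad52: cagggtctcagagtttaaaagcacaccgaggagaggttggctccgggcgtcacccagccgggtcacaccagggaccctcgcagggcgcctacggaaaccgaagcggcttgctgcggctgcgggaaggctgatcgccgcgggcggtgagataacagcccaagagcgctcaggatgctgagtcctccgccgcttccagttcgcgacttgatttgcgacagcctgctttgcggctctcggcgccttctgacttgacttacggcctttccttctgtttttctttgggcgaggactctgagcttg
Xrcc3: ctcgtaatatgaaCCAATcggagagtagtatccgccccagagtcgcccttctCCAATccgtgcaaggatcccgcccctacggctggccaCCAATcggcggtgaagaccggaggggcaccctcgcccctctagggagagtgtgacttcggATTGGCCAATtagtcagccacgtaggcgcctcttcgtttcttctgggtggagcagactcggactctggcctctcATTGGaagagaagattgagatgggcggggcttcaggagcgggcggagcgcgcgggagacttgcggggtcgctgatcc

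Of the 37 members, 30 had a promoter in the RefSeq table, which holds 27025 genes. The E2F motif, searched as TTTCCCGC, TTTGCCGC, TTTCGCGC and TTTGGCGC, was present in 4 of the 30 member promoters (Bard1, Brca2, Fancg and Rad51c), or 13.3%, against 2.32% of all promoters of the same length. It is in none of the 6 printed promoters, and the CHR element occurs among them only in Polq, in 2 copies. The CHR element, searched as TTTGAA and TTCGAA, was present in 3 of 30 (Bard1, Eme1 and Polq), or 10.0%, against 19.4% of all promoters. The CCAAT box, searched as CCAAT, was present in 17 of 30, or 56.7%, against 37.9% of all promoters. In the printed set it occurs once upstream of the start of Rad54l, at 50 bases before it, in 2 copies in Fanca, at 50 and 23 bases before it, in 6 copies in Xrcc3, and not in Polq, Fanci or Rad52. These matches of letters are a description and do not show binding.

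In MEFs given vehicle, loss of Mof lowered most of the pathway. Of 37 tested members 30 were called lower, against 19.6% of all 15605 tested genes, and 1 was called higher, against 17.8% of all tested genes. The median log2 fold change was -0.97 over the members and 0.01 over all tested genes. The largest falls were in DNA polymerase theta, the FANCD2-FANCI pair, RAD54 and the EME1 nuclease subunit, each at under 30% of the wild-type level. Mus81, the catalytic partner of EME1, rose.

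**Figure D1:**
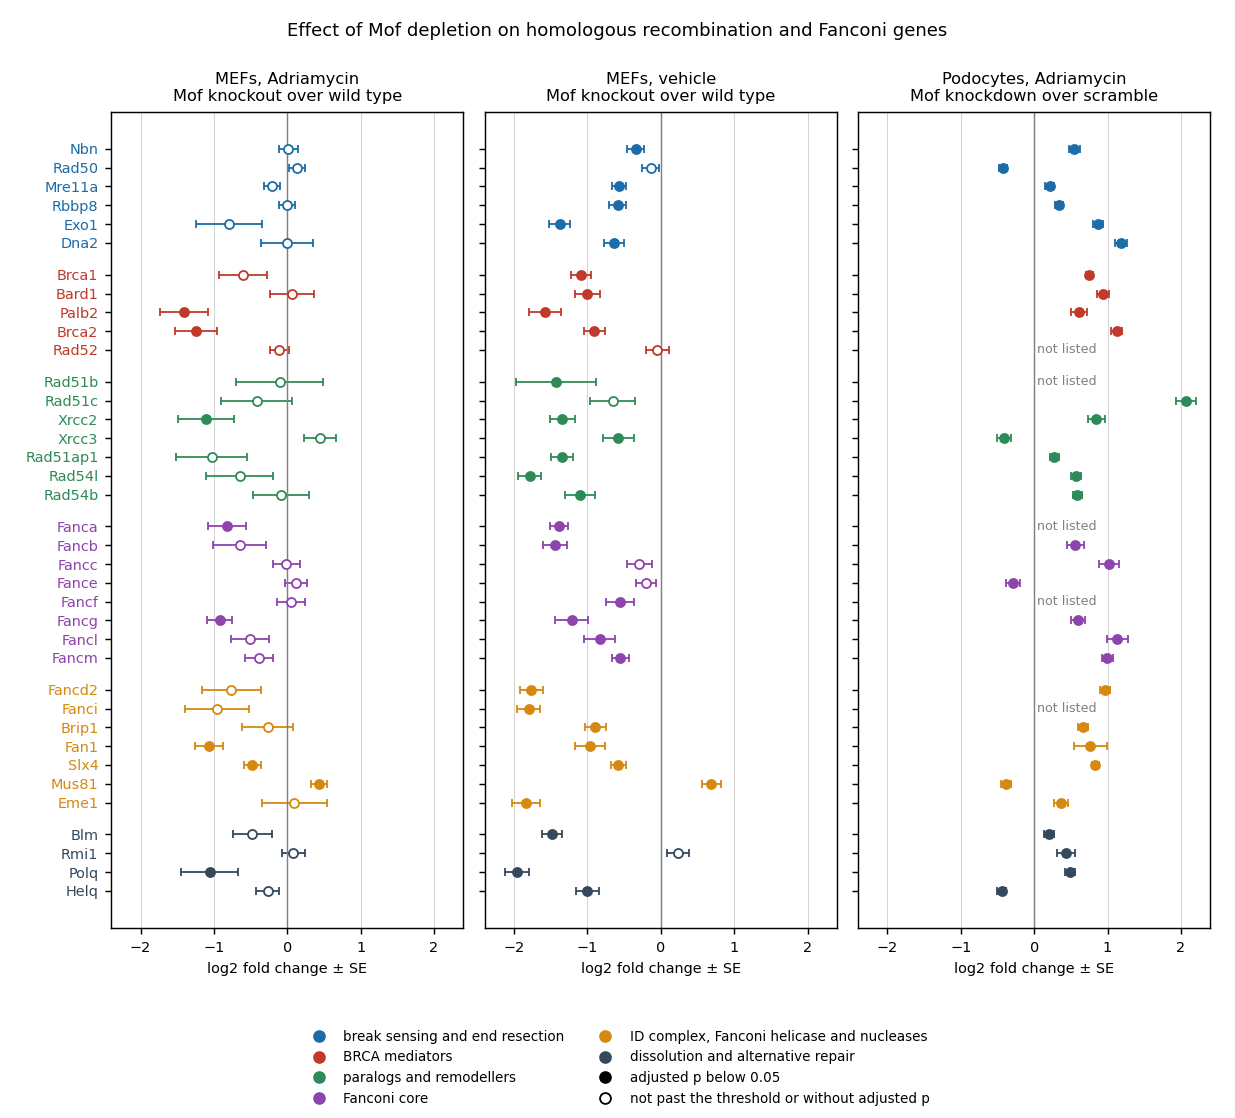
Log2 fold change ± SE of each member (rows, grouped and coloured by role) after Mof depletion, in MEFs given Adriamycin (left), MEFs given vehicle (middle) and podocytes given Adriamycin (right). Filled points have an adjusted p below 0.05. In the vehicle panel 30 of 37 points are filled left of 0, and in the podocyte panel 27 of 32 listed members lie right of 0; no panel is drawn for podocytes given vehicle, whose table lists 0 members.

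Among the genes of break sensing and end resection 5 of 6 fell in MEFs given vehicle. Exo1, a nuclease that resects DNA ends over long distances, had the largest fall, with a log2 fold change of -1.38 ± 0.15 (38.5% of wild type, adjusted p 1.41e-19) in the authors' deposited table. The MRN genes moved less: Mre11a was at -0.57 ± 0.10 and Nbn at -0.34 ± 0.12 in the authors' deposited table, while Rad50 was at -0.14 ± 0.12 and was not called (adjusted p 0.390). Rbbp8, which encodes the resection factor CtIP, was at -0.59 ± 0.11, and the nuclease and helicase gene Dna2 at -0.64 ± 0.14, in the authors' deposited table.

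Of the 5 BRCA mediators 4 fell. Palb2, the bridge between BRCA1 and BRCA2, had the lowest value of the group at -1.57 ± 0.22 (33.6% of wild type) in the authors' deposited table. Brca1 was at -1.09 ± 0.13 and its ubiquitin ligase partner Bard1 at -1.0 ± 0.17 in the authors' deposited table. Brca2, which works at resected ends, was at -0.90 ± 0.14 (adjusted p 9.67e-10) in the authors' deposited table. Rad52, an annealing protein, stood apart with -0.05 ± 0.16 (adjusted p 0.856) per the authors' deposited table.

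Of the 7 genes of the paralog and remodeller group (Rad51b, Rad51c, Xrcc2, Xrcc3, Rad51ap1, Rad54l and Rad54b), which act in strand invasion, 6 fell. Rad54l, a motor protein that drives strand invasion, was at -1.78 ± 0.16 (29.1% of wild type, adjusted p 4.95e-28), and its relative Rad54b was at -1.10 ± 0.20, in the authors' deposited table. Xrcc2 and Rad51ap1, a gene of strand invasion, were at -1.34 ± 0.17 and -1.34 ± 0.15 in the authors' deposited table. The paralog gene Rad51b was called (-1.42 ± 0.55, adjusted p 0.0278) with few reads, at a mean count of 13.3 per the authors' deposited table. Its partner Rad51c, at -0.65 ± 0.30, was not called in the authors' deposited table (adjusted p 0.0758), and Xrcc3, which works with Rad51c, fell by a smaller amount (-0.58 ± 0.21).

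In the Fanconi core complex 6 of 8 genes fell, and the subunits were uneven. Fancb and Fanca, a scaffold and a structural subunit, had the lowest values, -1.44 ± 0.16 and -1.38 ± 0.12 in the authors' deposited table. Fancg was at -1.21 ± 0.23 and Fancl, the ubiquitin ligase of the complex, at -0.83 ± 0.21 in the authors' deposited table. Fancf and Fancm, the translocase that anchors the complex on DNA, were both at -0.55 (SE 0.20 and 0.11) in the authors' deposited table. Fancc (-0.29 ± 0.17) and Fance (-0.20 ± 0.13), which form a subcomplex with FANCF, were not called in the authors' deposited table.

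Of the FANCD2-FANCI pair, the BRIP1 helicase and the nucleases, 6 of 7 fell and 1 rose. Fanci (GRCm38 chr7:79391929-79450264) was at -1.80 ± 0.16 and Fancd2 (chr6:113531682-113597017) at -1.76 ± 0.16 in the authors' deposited table, so the partners stood within their SE of each other. Eme1 (chr11:94644996-94653964) was at -1.84 ± 0.19, or 28% of wild type, in the authors' deposited table. Mus81 (chr19:5482345-5488402), whose protein forms a structure-specific nuclease with EME1, was at 0.69 ± 0.13, or 161% of wild type (adjusted p 1.19e-06), per the authors' deposited table. The nuclease gene Fan1 (-0.97 ± 0.21), Brip1 (-0.89 ± 0.15) and the nuclease scaffold gene Slx4 (-0.58 ± 0.10) fell in the authors' deposited table. Thus the genes for both subunits of MUS81-EME1 were called in opposite directions.

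Dissolution and alternative repair fell in 3 of 4 genes. Polq (chr16:37011786-37095417), the polymerase of theta-mediated end joining, had the lowest value of all members at -1.96 ± 0.17 (25.8% of wild type, adjusted p 3.05e-29) in the authors' deposited table. Blm, the helicase that dissolves joined molecules, was at -1.48 ± 0.14, and the helicase gene Helq at -1.0 ± 0.16, in the authors' deposited table. Rmi1, a partner of BLM, was at 0.24 ± 0.15 and was not called in the authors' deposited table (adjusted p 0.219).

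**Figure D2:**
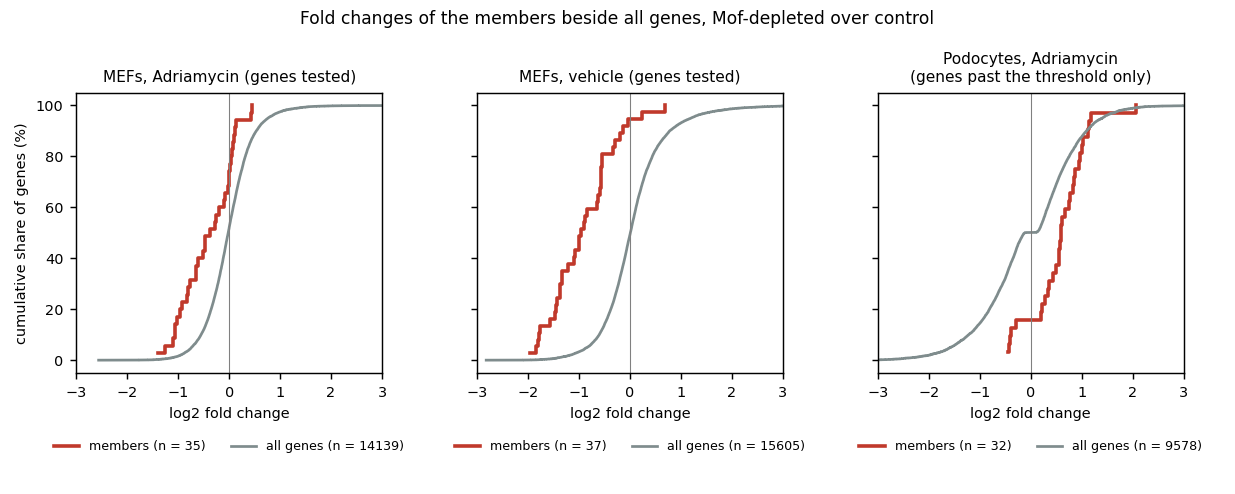
Cumulative share of genes (percent, vertical axis) against log2 fold change, Mof-depleted over control, for the members and for all genes, in MEFs given Adriamycin, MEFs given vehicle and podocytes given Adriamycin. The member curve lies left of all genes in both MEF panels, with medians of -0.38 and -0.97, and mostly right of them in podocytes, where the axis covers only genes past the threshold.

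Beside this, 12 of 15 proliferation markers were called lower in MEFs given vehicle, such as Mki67, Top2a, the MCM genes, Ccna2 and Ccnb1. Ccne1, Pcna and E2f1 were not called. The median log2 fold change of the 15 markers was -1.13, and their part in the result was not tested. Of 41 other genes of the pathway with a value, 22 were called lower and 2 higher, with a median of -0.38. Over all tested genes 19.6% were called lower and 17.8% higher. The 3 with the smallest adjusted p were the helicase gene Rtel1 (-0.94 ± 0.09), Parpbp (-1.44 ± 0.15) and Fignl1 (-1.02 ± 0.11) in the authors' deposited table. The 2 that rose were the translesion polymerase gene Rev1 (0.56 ± 0.12) and Bre, of the BRCA1-A complex (0.36 ± 0.11), in the authors' deposited table. Leukocyte markers moved too, with 2 of 6 called higher (Cd68 and Emr1) and none lower; mean normalized counts of the 6 ran up to 351, and their part was not tested. No label says if reads were counted by strand, and 18 members share exon bases with another gene on the opposite strand, among them Fanci (16.0% of its exon bases, with Polg), Rad54l (15.4%, with Lrrc41) and Fanca (10.5%, with Zfp276), while Rad54b shares 35.8% with Fsbp on its own strand.

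With Adriamycin, the members in MEFs had low counts and fewer were called. Of 35 tested members 8 were lower, against 16.1% of all 14139 tested genes, and 1 was higher, against 16.6% of all tested genes. The members' median log2 fold change was -0.38, beside -0.02 over all tested genes. All 9 called members, namely Palb2, Brca2, Xrcc2, Polq, Fan1, Fancg, Fanca, Slx4 and Mus81, were called with vehicle in the same direction. In either direction 9 members were called, against 32.7% of all tested genes. Rad51b and Rad51c, with mean normalized counts of 3.84 and 11.3, had no adjusted p.

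Brca2 and Palb2 had the lowest values among the mediators, and of all members. In the authors' deposited table Palb2 was at -1.40 ± 0.33 (37.8% of wild type, adjusted p 0.000190). Brca2 was at -1.25 ± 0.29 (42.0% of wild type, adjusted p 0.000145) in the authors' deposited table. Brca1 (-0.60 ± 0.33), Bard1 (0.06 ± 0.30) and Rad52 (-0.11 ± 0.13) were not called in the authors' deposited table.

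The Fanconi genes that fell with Adriamycin came from the core complex and the nucleases. Fan1 was at -1.07 ± 0.19 (adjusted p 8.06e-07), Fancg at -0.92 ± 0.17 (1.72e-06) and Slx4 at -0.48 ± 0.12 (0.000339) in the authors' deposited table, each at a mean normalized count of 127 or more. Fanca was at -0.82 ± 0.26 with a mean count of 55.2 in the authors' deposited table. Mus81 was again higher, at 0.44 ± 0.11 (135% of wild type, adjusted p 0.000603) in the authors' deposited table. Fanci (-0.96 ± 0.43) and Fancd2 (-0.76 ± 0.41) were not called in the authors' deposited table, at mean counts of 25.8 and 20.2.

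Xrcc2 (-1.11 ± 0.38) was the 1 paralog or remodeller called, and Polq (-1.06 ± 0.39) the 1 gene of dissolution and alternative repair, in the authors' deposited table. The 6 genes of break sensing and end resection had log2 fold changes between -0.80 and 0.13, with adjusted p of 0.156 or more in the authors' deposited table. For Rad50, Nbn, Mre11a and Rbbp8, with mean counts of 447 to 1030, the SE was 0.11 to 0.13 in the authors' deposited table, whereas Exo1 (mean count 15.4) had an SE of 0.45.

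The mean normalized counts of the MEF tables show how the members' reads differed between drug conditions, over Mof knockout and wild-type samples together. Each table was normalized on its own, so these levels are set side by side and not tested. For the median member, with no minimum count set, the mean count with Adriamycin was 28.8% of that with vehicle. Over the 11099 genes reaching a mean count of 100 in either table it was 108%. Rad51b, Rad51c and Xrcc3 did not reach that count in either. Exo1 had 15.4 with Adriamycin and 400 with vehicle, Rad54l 15.6 and 238, and Fanca 55.2 and 608. Brca1 had a mean count of 56.4 with Adriamycin and 474 with vehicle. In contrast Mus81 had 766 with Adriamycin and 399 with vehicle, Rad52 303 and 202, and Rad50 1030 and 950.

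**Figure D3:**
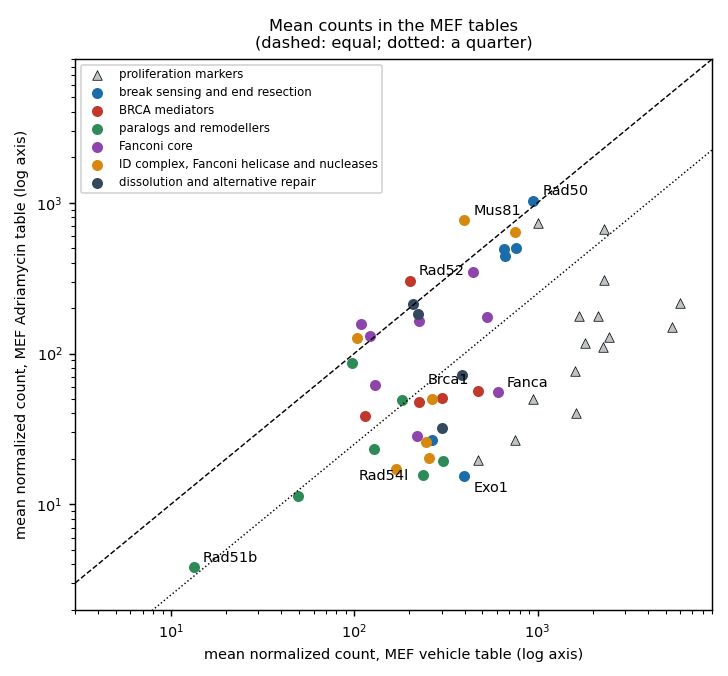
Mean normalized count of each member (coloured by role) and of 15 proliferation markers (grey triangles) in the MEF Adriamycin table (vertical, log axis) against the MEF vehicle table (horizontal, log axis). For 17 of 37 members and 13 of 15 proliferation markers the Adriamycin value is at most 25% of the vehicle value (at or below the dotted line).

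For 17 of 37 members (45.9%) the count with Adriamycin was at most 25% of that with vehicle, a limit set after seeing the values. Among the 11099 genes, which unlike the members had to reach a mean count of 100, the share was 2.08%. Those 17 included Exo1, Dna2, Brca1, Bard1, Brca2, Rad51ap1, Rad54l, Fanca, Fancd2, Fanci, Eme1, Blm and Polq. In MEFs given vehicle 16 of the 17 were called lower after loss of Mof (median -1.38), and of the other 20 members 14 were (median -0.57). Over all tested genes 19.6% were called lower. A link between the level with Adriamycin and the effect of Mof loss was not tested. The 7 members with more reads under Adriamycin were Rad50, Rad52, Fancf, Fancg, Fan1, Mus81 and Helq. The median SE of the 17 was 0.38 with Adriamycin and 0.16 with vehicle, so a change of a given size was harder to call in the Adriamycin table.

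Whether the effect of Mof loss differed between drug conditions was tested directly, as the Adriamycin fold change minus the vehicle fold change, in log2 units, divided by their combined SE (z test, Benjamini-Hochberg over 13973 genes). Of 35 members 6 differed upward, against 3.49% of all genes. None differed downward, against 3.61% of all genes; at an unadjusted p below 0.05, 14 members differed upward, against 9.93% of all genes, and 0 downward, against 10%. In either direction 7.09% of all genes differed. The difference was above 0 for 30 members and below 0 for 5, with a median of 0.48 beside -0.02 for all genes. All 6 had been called lower with vehicle and none of them was called with Adriamycin by DESeq2 as run by the authors. For the other 29 a difference was not detectable. If the fold changes were shrunk, which is not stated, members with few reads under Adriamycin would have smaller changes there. Members that were low with vehicle would then differ upward in part for that reason, which was not tested.

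**Figure D4:**
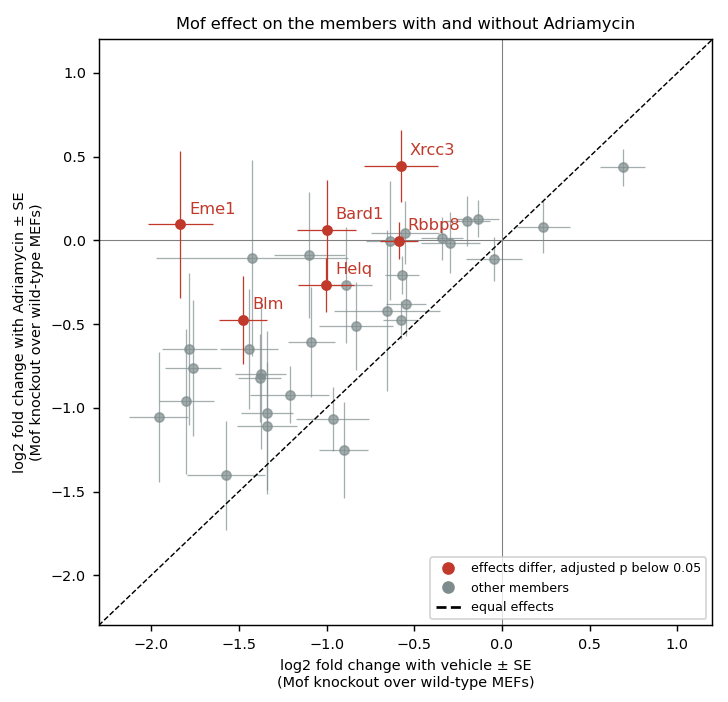
Log2 fold change ± SE of each member (Mof knockout over wild-type MEFs) with Adriamycin (vertical) against vehicle (horizontal). Red points are the 6 members whose effects differed, all above the dashed line of equal effects; grey points are the other members, including Rad51b and Rad51c, for which the difference was not tested.

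The largest of the 6 differences was that of Eme1, 1.93 ± 0.48 (adjusted p 0.00224), from 0.10 ± 0.44 with Adriamycin and -1.84 ± 0.19 with vehicle in the authors' deposited table. Its mean count with Adriamycin was 17.1. Bard1 differed by 1.06 ± 0.34 (adjusted p 0.0349), with 0.06 ± 0.30 under Adriamycin and -1.0 ± 0.17 under vehicle in the authors' deposited table. Blm differed by 1.0 ± 0.29 (adjusted p 0.0162), with -0.48 ± 0.26 under Adriamycin and -1.48 ± 0.14 under vehicle in the authors' deposited table. Helq, at 0.73 ± 0.22, and Rbbp8, at 0.59 ± 0.16, differed with mean counts of at least 209 in both tables. Xrcc3 was at 0.44 ± 0.22 with Adriamycin (adjusted p 0.102) and -0.58 ± 0.21 with vehicle in the authors' deposited table, a difference of 1.02 ± 0.30. Brca2, Palb2, Fan1, Slx4 and Mus81 had differences of -0.35 ± 0.32, 0.17 ± 0.40, -0.10 ± 0.28, 0.10 ± 0.16 and -0.25 ± 0.17, none of which passed the test.

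Of the proliferation markers, 3 were called lower and 1 higher of 15 in MEFs with Adriamycin (median -0.60), and 1 of 15 differed between drug conditions. Their difference between drug conditions had a median of 0.46, beside 0.48 for the members, and was above 0 for 14 of 15. Their part in the result was not tested. Of 39 other pathway genes 5 differed upward and 0 downward, against 3.49% and 3.61% of all genes, with a median difference of 0.22. Of 39 other pathway genes tested with Adriamycin, 13 (33.3%) were lower and 5 (12.8%) higher. Over all tested genes 16.1% were lower and 16.6% higher. Those with the smallest adjusted p were Rad54l2 (-0.69 ± 0.14), Recql (-0.70 ± 0.15) and Brcc3 (-0.70 ± 0.16) in the authors' deposited table. On the higher side they were Top3a, the topoisomerase that works with BLM (0.50 ± 0.12), Rev1 (0.37 ± 0.11) and Rpa1, a subunit of the protein that coats single-stranded DNA (0.31 ± 0.09), in the authors' deposited table. The 5 leukocyte markers tested with Adriamycin had adjusted p of 0.152 or more per the authors' deposited table.

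In podocytes given vehicle, none of the 37 members was in the authors' table, where 5.64% of the 13876 genes tested were called lower and 8.70% higher. The table gives no value for genes that missed the threshold, so neither their levels, nor the count at an unadjusted p, nor whether a member was tested can be read from it. Among the 44 other pathway genes Fignl1 was called higher (0.28 ± 0.10) and Recql5 lower (-0.33 ± 0.10) in the authors' deposited table. Of the 15 proliferation markers Mki67 was listed, at 0.45 ± 0.16 in the authors' deposited table.

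In podocytes given Adriamycin, knockdown of Mof was accompanied by higher RNA of most members. Of the 37 members 27 were called higher, against 27.8% of the 17184 genes tested, and 5 were called lower, against 27.9% of all genes. In either direction 32 were called, against 55.7% of all genes. The members that fell were Rad50, Xrcc3, Fance, Mus81 and Helq, and Rad51b, Rad52, Fanca, Fancf and Fanci were not listed. The listed members' values ran between -0.44 and 2.07. The largest rise was in Rad51c, and the Brca2, Dna2, Fancl, Fancc and Fancm genes each rose to about 200% of the scramble level or more.

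Rad51c (GRCm38 chr11:87376645-87404954), a gene of the paralog complexes that assist strand invasion, was at 2.07 ± 0.13 (420% of scramble, adjusted p 3.42e-55) in the authors' deposited table. Xrcc2 (0.85 ± 0.12), Rad54b (0.59 ± 0.06), Rad54l (0.57 ± 0.07) and Rad51ap1 (0.27 ± 0.06) also rose, per the authors' deposited table. Xrcc3 fell, to 75.2% of scramble (-0.41 ± 0.10) in the authors' deposited table. Among the paralogs and remodellers, then, Xrcc3 alone was called lower.

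All 4 listed BRCA mediators rose. Brca2 was at 1.12 ± 0.07 (218% of scramble, adjusted p 3.16e-58) and Bard1 at 0.94 ± 0.08 in the authors' deposited table. Brca1 was at 0.75 ± 0.05 with a mean count of 2344, and Palb2 at 0.61 ± 0.11, in the authors' deposited table.

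Of the resection genes Dna2 (1.18 ± 0.08) and Exo1 (0.87 ± 0.06) rose most in the authors' deposited table. Nbn (0.55 ± 0.08), Rbbp8 (0.34 ± 0.06) and Mre11a (0.22 ± 0.06) rose by smaller amounts in the authors' deposited table. Rad50 fell, at -0.43 ± 0.05 with a mean count of 2816 (adjusted p 3.35e-15) in the authors' deposited table, so the MRN genes moved in both directions.

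In the core complex Fancl (1.13 ± 0.14), Fancc (1.02 ± 0.14), Fancm (1.0 ± 0.08), Fancg (0.60 ± 0.10) and Fancb (0.56 ± 0.11) rose and Fance fell (-0.28 ± 0.10) in the authors' deposited table. Fancd2 was at 0.96 ± 0.07 and Slx4 at 0.83 ± 0.05 (adjusted p 2.06e-67) in the authors' deposited table. Fan1 (0.77 ± 0.23), Brip1 (0.66 ± 0.07) and Eme1 (0.37 ± 0.10) rose, and Mus81 fell to 76.7% of scramble (-0.38 ± 0.06, adjusted p 4.91e-09), in the authors' deposited table. The genes for the MUS81-EME1 subunits were thus called in opposite directions here too, each with the other sign than in MEFs given vehicle. Polq (0.49 ± 0.07), Rmi1 (0.43 ± 0.12) and Blm (0.21 ± 0.07) rose and Helq fell (-0.44 ± 0.06) in the authors' deposited table.

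With these members, 10 of 15 proliferation markers were called higher and 3 lower in podocytes given Adriamycin, and the podocyte markers Cd2ap, Magi2, Podxl and Synpo were called higher; their part in the result was not tested. Of the leukocyte markers Csf1r was called higher and Cd68 lower, with mean counts of 162 and 516. Of the 44 other pathway genes 24 (54.5%) were higher and 9 (20.5%) lower, against 27.8% and 27.9% of all genes tested. The 3 that rose with the smallest adjusted p were Usp1, which removes ubiquitin from FANCD2 (1.42 ± 0.06), Fignl1 (1.45 ± 0.08) and Rpa1 (0.63 ± 0.04), in the authors' deposited table. Top3a (-1.15 ± 0.06), the nuclease gene Ercc1 (-0.89 ± 0.08) and Eme2 (-1.13 ± 0.13) fell in the authors' deposited table.

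**Figure D5:**
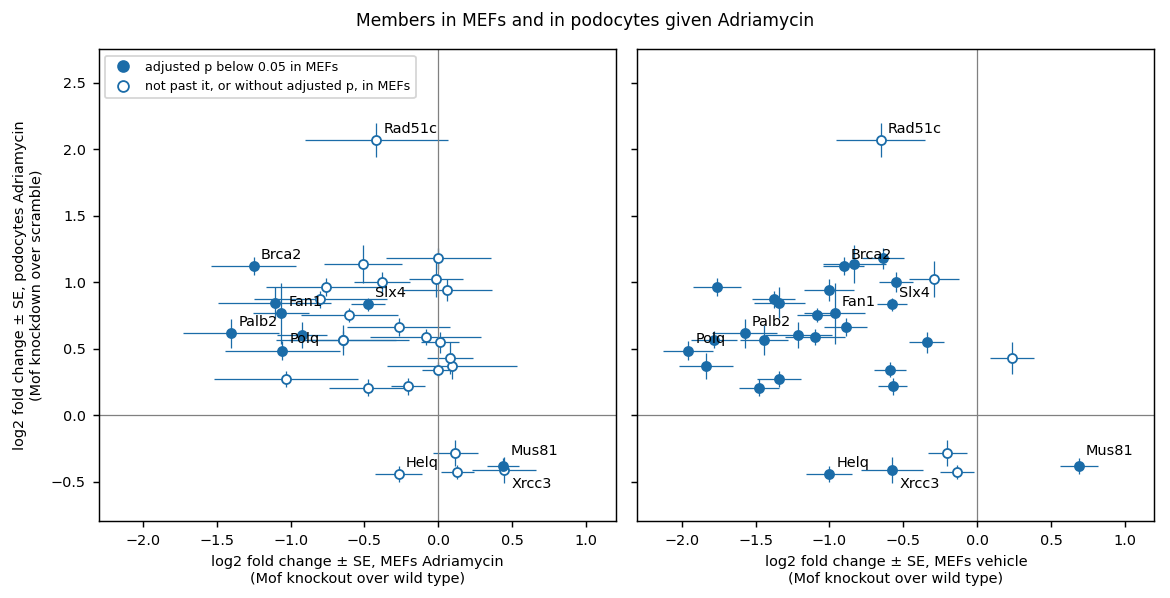
Log2 fold change ± SE of the 32 members listed for podocytes given Adriamycin (vertical) against that in MEFs given Adriamycin (left) and vehicle (right). Filled points were called in the MEF table. All 8 filled points of the left panel and 25 of the 27 of the right panel have opposite signs on the axes.

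The cell types were set side by side, with no sample in common and no test of the difference. With Adriamycin in both, 8 members were called in MEFs and in podocytes, which is 88.9% of those called in MEFs and 25% of those called in podocytes, and all 8 had opposite signs. Of these, 7 were lower in MEFs and higher in podocytes (Brca2, Palb2, Xrcc2, Fancg, Fan1, Slx4 and Polq), and Mus81 was the reverse. Of the 3191 genes called in both conditions, 74.5% had opposite signs, so the members went with most genes. Between MEFs given vehicle and podocytes given Adriamycin 25 of 27 members called in both had opposite signs, against 68.9% of 4003 genes; the exceptions, Helq and Xrcc3, were lower in both. Of 1518 genes called in both podocyte comparisons, 34.3% had opposite signs, and 38.7% of 890 between the vehicle tables of MEFs and podocytes. The direction of the podocyte Adriamycin table rests on the sign of Kat8. Knockout and knockdown, dose, passage and cell type differ together between these tables and cannot be told apart.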

How the data were processed

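RNA of 24 samples in 8 groups of 3 was measured from poly(A) libraries. The submitters' processing notes name DESeq2 1.4.1, featureCounts 1.4.5-p1, TopHat2 2.0.13 and the GRCm38 build. The deposited tables hold a signal (the mean over samples of counts divided by size factors, made by the authors), a log2 fold change and its SE from the authors, a score (the authors' Wald statistic), and the deposited p-value and Benjamini-Hochberg adjusted p-value. Among genes with a mean count below 1, absolute log2 fold changes stayed at or below 0.835 (MEFs, Adriamycin) and 1.02 (MEFs, vehicle). Their SE stayed at or below 0.546 (MEFs, Adriamycin) and 0.685 (MEFs, vehicle). Shrinkage of fold changes is not stated by the notes and was not tested. It would understate changes of members with few reads, and so bear on the difference between drug conditions. No file holds values per sample, so depth, SDs and a test of the labels were out of reach; the SE gives the precision. Numbers of genes tested in podocytes were recovered from p, adjusted p and rank.

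Computed here (Python 3.11.15, scipy 1.17.1, pandas 2.3.3): counts by direction at an adjusted p below 0.05, medians, the z test between drug conditions, and motif matches. The z test was tried on simulated fold changes, drawn with the authors' SE and without shrinkage. That simulation therefore does not show how the test behaves if the fold changes were shrunk. Coordinates and exon overlaps are from GENCODE M21 (GRCm38). The members, gene lists and tests were chosen with earlier results of these data known. All members are accounted for; values were given by role group for the members past the threshold (up to the 4 with the smallest adjusted p at least) and for those moving against the majority, and for the 3 other pathway genes with the smallest adjusted p in each direction. Of 44 such genes, 3 (Faap24, Faap100 and Faap20) were not matched by symbol. Alternatives were a threshold of 0.01, a minimum mean count of 100, adjustment over every gene with a p, and centring on the median gene. Some results on marker genes are not reported here.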

Additional observations from a re-analysis of the deposited data

Results flagged for a closer look

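For 6 members the effect of Mof loss in MEFs differed between Adriamycin and vehicle by the z test adjusted over 13973 genes. The difference, Adriamycin less vehicle on the log2 scale, was 1.93 for Eme1, 1.06 for Bard1, 1.02 for Xrcc3, 1.0 for Blm, 0.73 for Helq and 0.59 for Rbbp8.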

How the results depend on the processing

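Counts of members lower and higher in each of the 4 tables, medians and counts of differences were recomputed under the alternatives, and 36 of 40 such values kept their direction and stayed within 1.5 times the reported count, or within the median SE of the reported median. The 36 include the counts for podocytes given vehicle, where 0 members were listed and the alternatives could only give 0. Among members reaching a mean count of 100, the members lower in MEFs given Adriamycin numbered 3 in place of 8 (Fancg, Fan1 and Slx4), and their median log2 fold change was -0.014 in place of -0.38, since 20 of 35 tested members fell below that count. The members whose effect differed between drug conditions numbered 2 in place of 6 with a threshold of 0.01 (Eme1 and Rbbp8), and 2 where both tables had a mean count of 100 or more (Helq and Rbbp8). Centring changed the sign of no called member in MEFs. Leaving out a replicate was not run, since the files hold no values per sample. No paired analysis was possible because the files hold only comparison tables, without a value for any sample. Depth per library is unknown; the median SE of tested members in MEFs was 0.26 with Adriamycin and 0.16 with vehicle, and over all tested genes 0.149 and 0.153. Exon overlaps on the opposite strand could not be separated.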

Other observations

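Per kilobase of exon, the mean normalized count of the members in MEFs given vehicle ran from 3.55 for Rad51b to 263 for Nbn, and Rad50 (177), Fance (140) and Mre11a (129) followed Nbn. In podocytes given Adriamycin, among listed members, it ran from 11.7 for Fan1 to 524 for Rad50, followed by Slx4 (499), Helq (376) and Mus81 (367). These are levels over depleted and control samples together, on the scale of each table.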
